A study of Mus musculus with 12 samples.

Results

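The adenylyl cyclases are the enzymes that make cyclic AMP (cAMP) from ATP. Their genes were followed here in the interscapular brown fat of mice, the heat-making depot between the shoulder blades, after 4 weeks at 1 of 3 ambient temperatures. The genes were taken by name from a table of raw RNA sequencing read counts: Adcy2, Adcy3, Adcy4, Adcy5, Adcy6, Adcy7, Adcy9 and Adcy10 are 8 of the 38924 genes of the table. All 8 passed the filter on low counts, which kept 14870 genes. The other cyclase genes of the table, Adcy1 and Adcy8, were not chosen and together held 0.0210% to 0.210% of the cyclase counts of a library.

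All mice were wild-type C57BL/6J animals, housed at their temperature from 10 to 14 weeks of age, with 4 mice and 4 libraries at each temperature: 30 °C (thermoneutral for a mouse and the baseline of the study), 22 °C (mild cold) and 6 °C (severe cold). No allele, drug or transgene is named in the labels. Bulk RNA of a whole depot mixes cell types, and fewer cells of a type cannot be told apart from less RNA per cell.

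In brown fat, noradrenaline released by nerves in the cold binds beta-adrenergic receptors, which act through the stimulatory G protein alpha subunit on the membrane cyclases. The cAMP they make activates protein kinase A, which starts lipolysis and switches on the transcription of heat-making genes. The isoforms differ in what else controls them: ADCY3 is counted among the calcium and calmodulin-sensitive enzymes, ADCY2, ADCY4 and ADCY7 are stimulated further by G protein beta-gamma subunits, ADCY5 and ADCY6 are inhibited by calcium and by the inhibitory G protein, and ADCY9 responds poorly to the plant compound forskolin. ADCY10 is the soluble cyclase, which is activated by bicarbonate and calcium and not by G proteins.

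Library totals ranged from 18290162 to 32513051 counts, except 86438386 in 22 °C mouse 3, whose library code (8846) also lay apart from the others (7509 to 7520). Levels are given as CPM, the count of a gene relative to the scaled size of its library, and 1 CPM stood for 16.8 to 84.8 reads. The columns of 2 libraries could be tied to 30 °C but not to a numbered mouse, and are called mice A and B. Values by mouse are given in the order 1, 2, A, B at 30 °C and 1, 2, 3, 4 at the other temperatures. Mice A and B stood apart in their macrophage markers (13 genes), whose summed level was 1411 and 1718 CPM in mice A and B, against 529 and 540.3 CPM in the other 30 °C mice. Skeletal muscle markers (14 genes) summed to between 848 and 4522 CPM at 30 °C, 845 and 3273 CPM at 22 °C, and 99.2 and 1713 CPM at 6 °C. The depot held its defining transcripts, with none of 12 brown adipocyte markers at 0 and a summed level of 5616 to 7288 CPM at 30 °C, 8107 to 10962 CPM at 22 °C and 15920.5 to 18511 CPM at 6 °C. Ucp1, the highest of them, averaged 1469 CPM at 30 °C, 3373 CPM at 22 °C and 10439 CPM at 6 °C and weighs heavily in that sum. By the test described below, 7 of the 12 were called higher and 1 lower at 6 °C against 30 °C, where 25.3% and 31.5% of all tested genes were. At 6 °C against 22 °C, 3 were called higher and 3 lower, where 16.9% and 17.4% of all tested genes were.

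At 6 °C the cyclase transcripts of brown fat had another make-up than at 30 °C. Adcy3 rose 7.06-fold and Adcy10 rose 87.5-fold at 6 °C against 30 °C, Adcy4 and Adcy7 fell, and Adcy6, the main isoform at 30 °C, did not pass the test. Neither fall passed it when mice A and B of 30 °C were left out. A gene was called where the adjusted p of edgeR's quasi-likelihood test was under 0.05, with Benjamini-Hochberg adjustment over the 14870 genes, and every adjusted p below comes from that test. In this comparison 4 of the 8 genes were called, 2 higher and 2 lower, where 56.8% of all tested genes were called, 25.3% higher and 31.5% lower, so the share of cyclases called lay near the background. The median log2 fold change was -0.38 over the 8 genes and -0.11 over all tested genes.

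**Figure D1:**
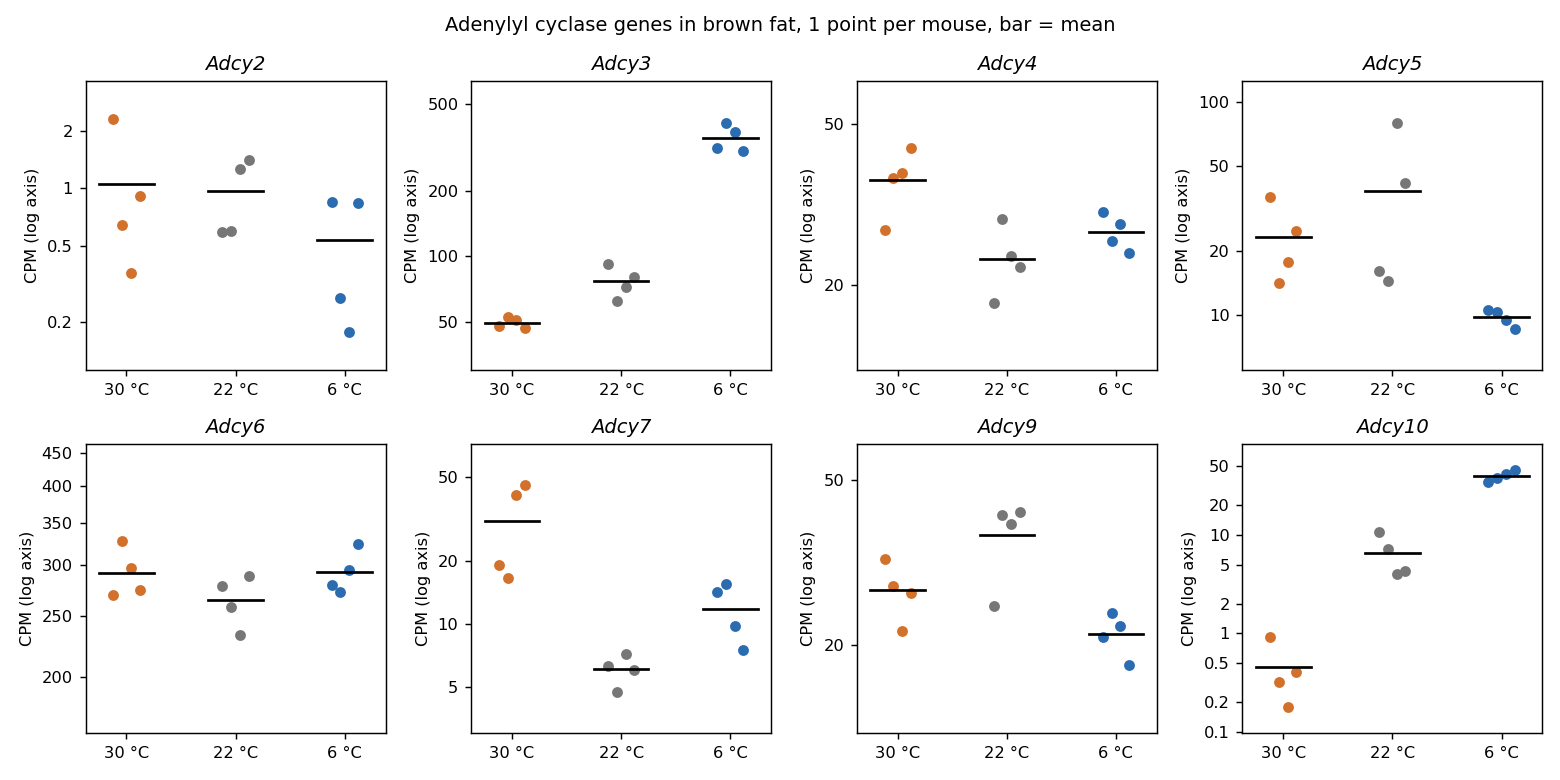
Level of each of the 8 cyclase genes in CPM on a log axis, with 1 point per mouse at 30, 22 and 6 °C and a bar at the mean of 4 mice. The Adcy3 points at 6 °C lie between 305 and 408 CPM, above every point at 22 and 30 °C, while those of Adcy6 overlap at all temperatures.

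Adcy3 rose at each step down in temperature. In the GRCm38 build the gene lies on the plus strand at chr12:4133103-4213525. It held 47.9, 52.6, 50.9 and 46.7 CPM at 30 °C, 91.6, 62.0, 72.0 and 80.3 CPM at 22 °C, and 312, 408, 373 and 305 CPM at 6 °C. The groups did not overlap at any step, and the 4 mice of 30 °C were the most alike. Means were 49.5 ± 2.70 CPM at 30 °C, 76.5 ± 12.5 CPM at 22 °C and 349.7 ± 49.2 CPM at 6 °C (SD, n = 4 each).

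For Adcy3 the log2 fold change was 2.82 at 6 °C against 30 °C (SE 0.13, adjusted p = 1.5e-08 by edgeR). It was 0.63 at 22 °C against 30 °C (SE 0.12, edgeR adjusted p = 0.00106) and 2.19 at 6 °C against 22 °C (SE 0.13, edgeR adjusted p = 8.5e-07). The second step exceeded the first by 1.57 on the log2 scale (SE 0.22, edgeR adjusted p = 4.6e-04). The change at 6 °C against 30 °C stayed between 2.50 and 2.88 and called in all 24 alternative settings, and that at 22 °C against 30 °C was called in 23 of the 24.

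Exons of Cenpo, a centromere protein gene on the opposite strand, overlap 22.09% of the exon bases of Adcy3. Whether the counting used strand is not given in the sources used here. Reads in that stretch therefore cannot be assigned to either gene with certainty. Cenpo itself held 6.59 ± 1.42 CPM at 6 °C, against 6.55 ± 0.970 CPM at 30 °C (log2 fold change 0.01, SE 0.16, edgeR adjusted p = 0.955). A shorter Adcy3 transcript that starts inside the gene has been described in cold-exposed mouse brown fat. Counts per gene do not separate it from the full-length form.

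Adcy10, the soluble cyclase, was close to undetected at 30 °C and rose at both steps. The gene lies on the plus strand at chr1:165485183-165576774. Its level was 0.915, 0.322, 0.180 and 0.410 CPM at 30 °C, which came from 27, 8, 6 and 13 reads. It was 10.7, 7.16, 4.04 and 4.35 CPM at 22 °C and 34.7, 37.7, 42.1 and 45.8 CPM at 6 °C. No mouse of a colder group reached down into the range of a warmer one, and the lowest 22 °C mouse, mouse 3, was also the most deeply sequenced.

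The log2 fold change of Adcy10 was 6.45 at 6 °C against 30 °C (SE 0.44, edgeR adjusted p = 7.8e-07), with a 95% interval of 44.4-fold to 172-fold. It was 3.81 at 22 °C against 30 °C (SE 0.44, edgeR adjusted p = 7.9e-05), or 14.1-fold, and 2.64 at 6 °C against 22 °C (SE 0.34, edgeR adjusted p = 2.8e-04), or 6.22-fold. The 2 steps differed by -1.18 on the log2 scale, which did not pass (SE 0.65, edgeR adjusted p = 0.198, 95% interval -2.61 to 0.25). The fold sizes rest on few reads at 30 °C: without 30 °C mouse 1, the highest of its group, the log2 fold change was 7.04 at 6 °C and 4.40 at 22 °C. Across all 24 alternatives it ranged from 5.98 to 7.04 at 6 °C against 30 °C and remained called.

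**Figure D2:**
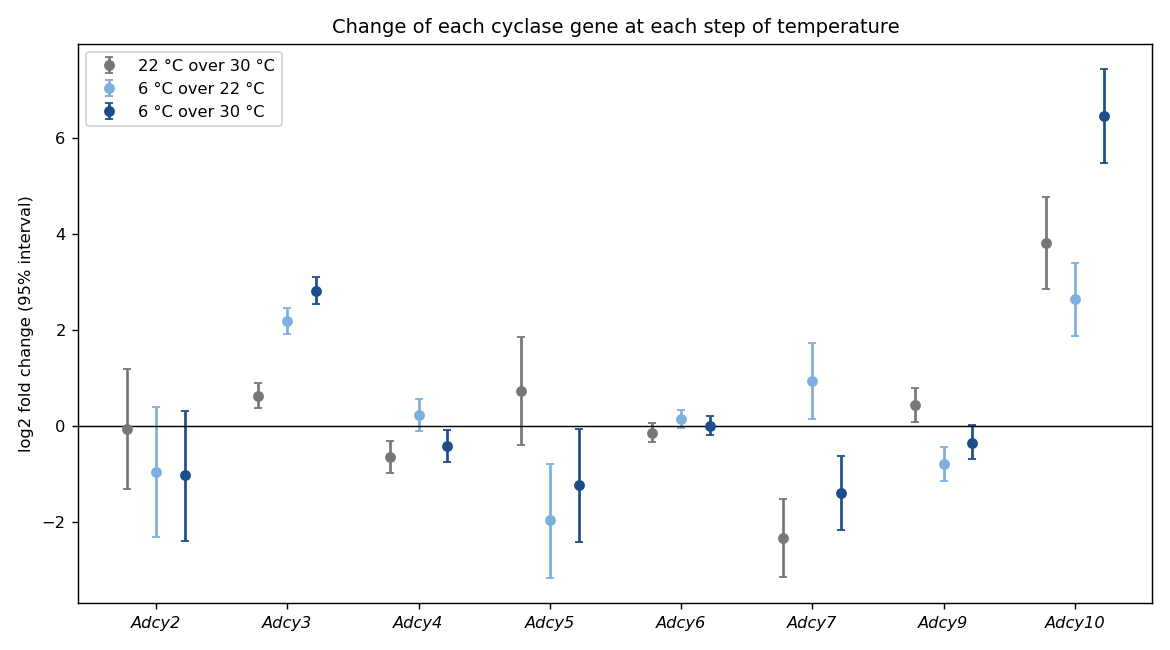
Log2 fold change of each cyclase gene with its 95% interval, for 22 °C over 30 °C, 6 °C over 22 °C and 6 °C over 30 °C. Adcy10 reaches 6.45 and Adcy3 2.82 at 6 °C over 30 °C, the interval of Adcy6 spans 0 in every comparison, and Adcy7 lies at -2.33 for 22 °C over 30 °C.

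Promoter windows were read for the genes that rose at both steps, to show the letters at their annotated starts. They are RefSeq sequences of GRCm38.p6, each 250 bases before and 50 after a start, on the plus strand, and entries were found for 7 of the 8 cyclase genes. Capitals mark matches, on either strand, to 4 motifs. The first is the CCAAT box, known from many constitutive and regulated promoters. Next is GGGCGG, the GC box bound by factors of the SP family. The third, TGACG, is the core of the cAMP response element that CREB binds. The last, AGGTCA, is the core site of nuclear receptors such as those of thyroid hormone.
Adcy10, chr1:165484933-165485232: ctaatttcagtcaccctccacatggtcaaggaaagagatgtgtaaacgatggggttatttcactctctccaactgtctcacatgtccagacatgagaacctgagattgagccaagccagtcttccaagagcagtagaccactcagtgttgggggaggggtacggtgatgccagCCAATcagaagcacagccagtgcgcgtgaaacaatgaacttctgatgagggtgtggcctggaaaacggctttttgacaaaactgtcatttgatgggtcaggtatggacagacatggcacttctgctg
Adcy3, chr12:4133147-4133446: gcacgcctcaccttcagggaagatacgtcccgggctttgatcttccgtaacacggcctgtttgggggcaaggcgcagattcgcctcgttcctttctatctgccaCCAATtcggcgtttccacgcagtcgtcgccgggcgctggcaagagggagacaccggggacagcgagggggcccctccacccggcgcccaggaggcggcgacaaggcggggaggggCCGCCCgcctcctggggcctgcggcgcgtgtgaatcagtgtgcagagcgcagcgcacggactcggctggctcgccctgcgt
Adcy3, chr12:4133903-4134202: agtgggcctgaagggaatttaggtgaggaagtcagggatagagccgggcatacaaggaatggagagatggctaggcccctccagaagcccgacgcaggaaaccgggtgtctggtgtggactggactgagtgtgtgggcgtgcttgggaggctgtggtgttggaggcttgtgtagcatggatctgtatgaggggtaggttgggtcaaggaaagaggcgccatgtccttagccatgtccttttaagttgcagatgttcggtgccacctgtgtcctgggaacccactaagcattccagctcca

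The Adcy10 window held a CCAAT box whose first base lies at position -77 from the start. The first Adcy3 window held a CCAAT box at -146 and a GC box at -31, and the second, from a start further into the gene, held no match to the motifs searched. Whether that start belongs to the shorter Adcy3 transcript named above was not determined. None of the 3 windows held the full cAMP response element, TGACGTCA, or its core. Neither the nuclear receptor core site nor a TATA box (searched as TATAAA) was found. An E box, searched as CACGTG on both strands, was not found either. The core of the cAMP response element lies within the full element, so a full element counts for both. Among 32851 promoter windows of the same length, 1.8% held the full cAMP response element, 20.8% its core, 16.3% the nuclear receptor core site, 35.7% a GC box, 37.4% a CCAAT box, 13.6% a TATA box and 7.2% an E box. The absence of a match says only that these letters are not in the window.

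Adcy10 has a close neighbour that also rose, chosen here after its values were seen. Mpc2, which encodes a subunit of the mitochondrial pyruvate carrier, ends 3969 bases upstream of Adcy10 on the same strand. It held 192 ± 14.6 CPM at 30 °C, 545 ± 87.1 CPM at 22 °C and 768 ± 32.6 CPM at 6 °C (SD, n = 4 each). Its log2 fold change was 2.00 at 6 °C against 30 °C (SE 0.11, edgeR adjusted p = 5.4e-08) and 0.50 at 6 °C against 22 °C (SE 0.11, edgeR adjusted p = 0.00417). The part of Mpc2 transcription in the counts of Adcy10 was not tested.

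Adcy6, a calcium-inhibited membrane cyclase, kept the most even level of the 8 genes. It lies on the minus strand at chr15:98589973-98610076. Its level was 269, 327, 297 and 274 CPM at 30 °C, 278, 258, 233 and 289 CPM at 22 °C, and 279, 272, 295 and 324 CPM at 6 °C. All 3 groups overlapped. The log2 fold change was 0.00 at 6 °C against 30 °C (SE 0.09, edgeR adjusted p = 0.975), with a 95% interval of -0.19 to 0.20, that is from 12.5% lower to 15% higher. It was -0.14 at 22 °C against 30 °C (95% interval -0.34 to 0.06, edgeR adjusted p = 0.230) and 0.15 at 6 °C against 22 °C (95% interval -0.05 to 0.34, edgeR adjusted p = 0.238).

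The level of Adcy6 depends on the scaling. With library totals alone in place of TMM factors its log2 fold change at 6 °C against 30 °C was -0.31 (edgeR adjusted p = 0.00499), a setting that moved the median of all genes by -0.32. An antisense transcript, Gm29331, overlaps 8.92% of its exon bases.

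Per length of exon, Adcy3 lay above Adcy6 in all 4 mice at 6 °C and below it in all mice at 22 and 30 °C. Per kilobase of exon, Adcy6 came first at 30 °C with 43.0 ± 3.92 CPM, followed by Adcy3 with 7.93 ± 0.432 CPM (SD, n = 4). At 22 °C Adcy6 had 39.0 ± 3.59 CPM per kilobase and Adcy3 12.2 ± 2.01. At 6 °C Adcy3 had 56.0 ± 7.88 CPM per kilobase, with a lowest mouse of 48.9, and Adcy6 had 43.1 ± 3.38, with a highest mouse of 47.8. The ratio of Adcy3 to Adcy6 per kilobase averaged 0.185 at 30 °C, 0.314 at 22 °C and 1.31 at 6 °C, where it ranged from 1.02 to 1.63 over the mice. In CPM, without the division by length, the ratio averaged 0.170 at 30 °C, 0.289 at 22 °C and 1.21 at 6 °C, where its lowest value was 0.942. By that measure Adcy6 lay above Adcy3 in 6 °C mouse 4.

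The order below these genes also moved. At 30 °C, Adcy3, Adcy4 (7.77 ± 1.44 CPM per kilobase), Adcy9 (5.21 ± 0.834), Adcy7 (4.58 ± 2.25) and Adcy5 (3.22 ± 1.32) each overlapped the next in the order. Adcy2 (0.251 ± 0.205) and Adcy10 (0.0522 ± 0.0366) came last and overlapped each other. At 22 °C, Adcy9 (7.07 ± 1.54), Adcy5 (5.30 ± 4.25) and Adcy4 (4.97 ± 0.976) followed Adcy3, each overlapping the next, then Adcy7 (0.899 ± 0.152) and Adcy10 (0.751 ± 0.353), which overlapped, and Adcy2 (0.230 ± 0.103). At 6 °C, Adcy10 stood at rank 4 with 4.59 ± 0.557 CPM per kilobase, overlapping both Adcy4 above it (5.80 ± 0.593) and Adcy9 below it (4.09 ± 0.485). Adcy7 (1.74 ± 0.561) and Adcy5 (1.36 ± 0.123) overlapped, and Adcy2 came last (0.127 ± 0.0860).

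**Figure D3:**
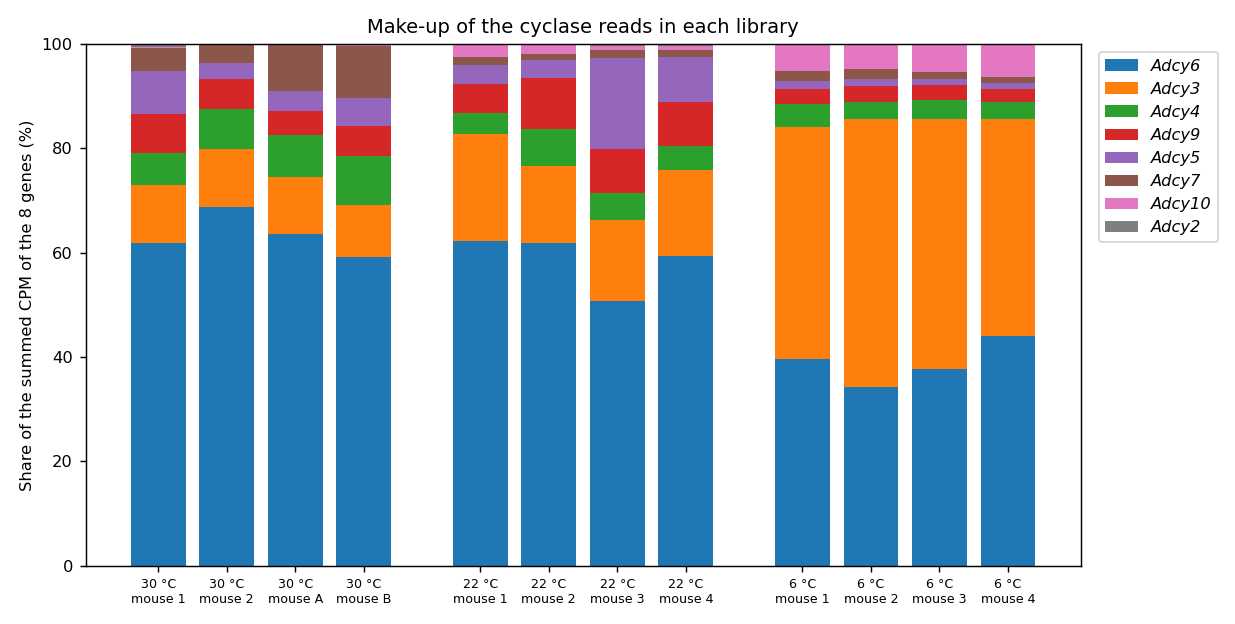
Share of each of the 8 genes in their summed CPM, as stacked bars for the 12 libraries at 30, 22 and 6 °C. Adcy3 takes 10.1% to 11.0% of the sum in the 30 °C mice, 14.9% to 20.5% at 22 °C and 41.6% to 51.4% at 6 °C.

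As shares of the summed cyclase CPM, Adcy3 made up 10.8% ± 0.459 at 30 °C, 16.9% ± 2.52 at 22 °C and 46.3% ± 4.23 at 6 °C (SD, n = 4 each). Adcy6 made up 63.3% ± 4.04 at 30 °C, 58.5% ± 5.41 at 22 °C and 39.0% ± 4.09 at 6 °C. The share of Adcy10 was 0.101% at 30 °C, 1.47% at 22 °C and 5.33% at 6 °C. The 6 °C mice overlapped with no mouse of the other temperatures in these 3 shares. A share falls when another gene rises, so the lower share of Adcy6 stands beside its even level in CPM.

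The sum over the 8 genes was 460.2 ± 18.0 CPM at 30 °C, 453 ± 28.9 CPM at 22 °C and 753 ± 41.7 CPM at 6 °C. Without Adcy3 and Adcy10 it was 410.2 ± 16.7 CPM at 30 °C, 369.6 ± 28.2 CPM at 22 °C and 363 ± 14.9 CPM at 6 °C. The extra cyclase reads at 6 °C were reads of Adcy3 and Adcy10. Counted per kilobase of exon, the shares of Adcy3 were 11.0% at 30 °C, 17.4% at 22 °C and 47.8% at 6 °C.

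Adcy7, a beta-gamma-stimulated isoform known from blood cells and macrophages, was high at 30 °C and low at 22 °C. It lies on the plus strand at chr8:88272403-88329962. It held 19.1, 16.5, 41.4 and 46.2 CPM at 30 °C, 6.28, 4.71, 7.18 and 6.03 CPM at 22 °C, and 14.2, 15.5, 9.73 and 7.45 CPM at 6 °C. No groups overlapped, and mice A and B were the highest of the 12. Adcy7 had a log2 fold change of -2.33 at 22 °C against 30 °C (SE 0.36, edgeR adjusted p = 4.8e-04) and -1.39 at 6 °C against 30 °C (SE 0.35, edgeR adjusted p = 0.00575). The change at 6 °C against 22 °C was 0.94 (SE 0.36, edgeR adjusted p = 0.0632), which did not pass but was called in 8 of 24 alternatives. Those were leaving out mice A and B together (0.96, edgeR adjusted p = 0.00708), DESeq2 (adjusted p = 0.00853), the 8 libraries compared alone (0.0117), the block of mouse number (0.0195) and the fit without the robust option (0.0463). The others left out 30 °C mouse 2 (edgeR adjusted p = 0.0375), 30 °C mouse B (0.0456) or 6 °C mouse 4 (0.0459).

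The 2 steps of Adcy7 differed by 3.28 on the log2 scale (SE 0.66, edgeR adjusted p = 0.00427), a call kept in all 23 alternatives that gave it. Without mice A and B the change at 6 °C against 30 °C was -0.59 and not called (edgeR adjusted p = 0.0862), while that at 22 °C against 30 °C was called in all 24 alternatives, between -2.61 and -1.38.

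The macrophage markers moved in the same way. Their summed CPM was 529, 540.3, 1411 and 1718 at 30 °C, 201, 141, 204 and 180.2 at 22 °C, and 409, 491, 299 and 243 at 6 °C. Within 22 °C and within 6 °C, the mice had the same order in Adcy7 and in this sum. Within 30 °C they did not: mouse 1 lay above mouse 2 in Adcy7 and below it in the sum. Of the 13 markers, all tested, 12 were called lower at 22 °C against 30 °C, where 22.8% of all tested genes were. At 6 °C against 30 °C 9 were called lower, where 31.5% of all tested genes were. Between 6 °C and 22 °C, 6 were called higher and 1 lower at 6 °C, where 16.9% and 17.4% of all tested genes were. None of the 13 was at 0 in all libraries. Markers of T and natural killer cells, 9 tested, were also all called lower in both comparisons with 30 °C. The part of macrophages, or of any other cell type, in the change of Adcy7 was not tested.

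**Figure D4:**
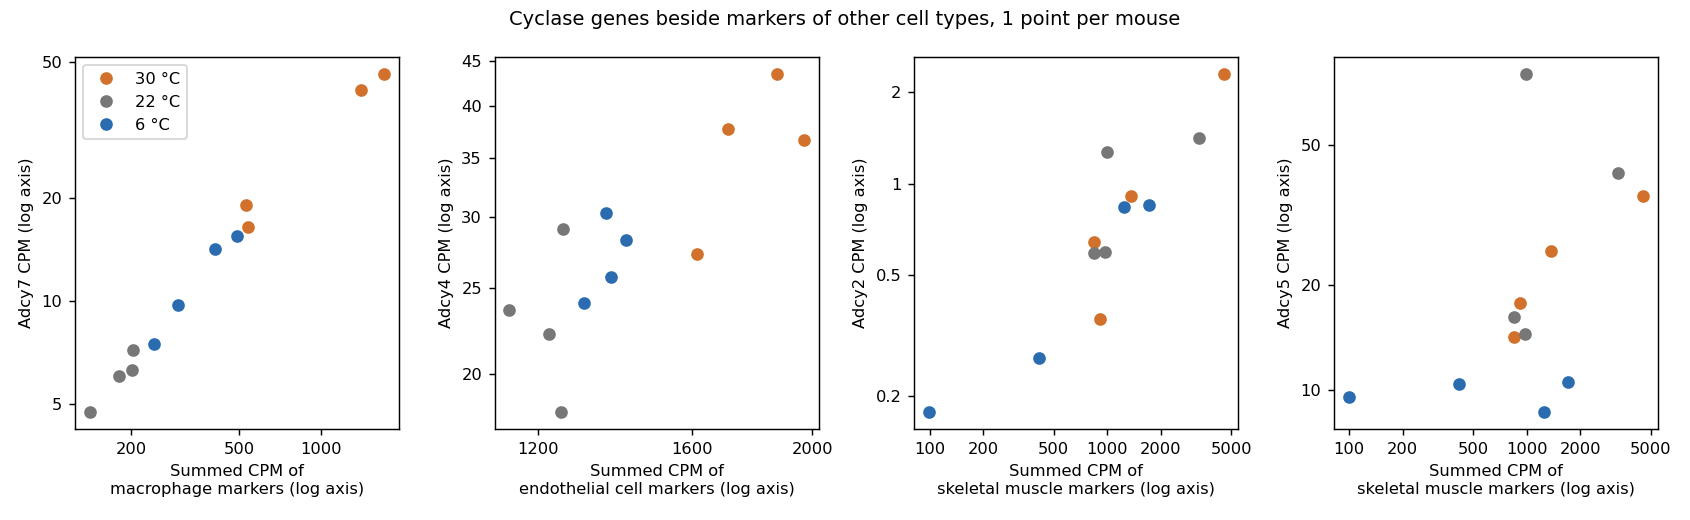
CPM of Adcy7 against the summed CPM of macrophage markers, of Adcy4 against endothelial markers, and of Adcy2 and Adcy5 against skeletal muscle markers, on log axes, with 1 point per mouse coloured by temperature. Mice A and B of 30 °C lie at the top right in Adcy7 (41.4 and 46.2 CPM), and the highest Adcy5 value, 79.9 CPM, stands beside a muscle marker sum of 994 CPM.

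Adcy4, also stimulated by beta-gamma subunits, fell by less. It lies on the minus strand at chr14:55769057-55784095. Its level was 27.3, 36.7, 37.7 and 43.5 CPM at 30 °C, 18.1, 29.1, 23.6 and 22.2 CPM at 22 °C, and 30.3, 25.7, 28.3 and 24.0 CPM at 6 °C. Mouse 1 of 30 °C overlapped with both colder groups, and the other 30 °C mice lay above them. Its log2 fold change was -0.65 at 22 °C against 30 °C (SE 0.15, edgeR adjusted p = 0.00419), -0.42 at 6 °C against 30 °C (SE 0.15, edgeR adjusted p = 0.0309) and 0.22 at 6 °C against 22 °C (edgeR adjusted p = 0.280). The 2 steps differed by 0.87 (SE 0.27, edgeR adjusted p = 0.0286).

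The calls of Adcy4 depended on single libraries. That at 6 °C against 30 °C held in 15 of 24 alternatives and was lost on leaving out 30 °C mouse 2, A or B or 6 °C mouse 2, 3 or 4 (log2 fold changes of -0.44 to -0.32). That at 22 °C against 30 °C held in 22 of 24, and was lost without mice A and B together (-0.47, edgeR adjusted p = 0.0651). The difference of the steps was not called without 22 °C mouse 1, 3 or 4 or 6 °C mouse 1 (0.66 to 0.92). Endothelial markers (13 genes, none at 0) summed to 1613 to 1969 CPM at 30 °C, 1138 to 1258 CPM at 22 °C and 1308 to 1413 CPM at 6 °C. Of these 13, 10 fell at 22 °C against 30 °C and 8 fell at 6 °C against 30 °C, where 1 rose. Endothelial markers were not alone in this. Of 11 fibroblast and preadipocyte markers, 10 were called lower and 0 higher in each of these comparisons. All 9 tested markers of T and natural killer cells were called lower in each. Of all tested genes, 22.8% were called lower at 22 °C against 30 °C and 31.5% at 6 °C against 30 °C. The part of any of these cell types in the change of Adcy4 was not tested.

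Adcy5, like Adcy6 inhibited by calcium, was variable in the warm and uniformly low at 6 °C. It lies on the plus strand at chr16:35154877-35305738. Its level was 35.8, 14.2, 17.7 and 24.9 CPM at 30 °C, 16.2, 14.5, 79.9 and 41.8 CPM at 22 °C, and 10.6, 10.4, 9.55 and 8.66 CPM at 6 °C. Every 6 °C mouse lay below every mouse of the other temperatures, which overlapped each other. The log2 fold change was -1.97 at 6 °C against 22 °C (SE 0.53, edgeR adjusted p = 0.0170), and -1.24 at 6 °C against 30 °C, which did not pass (SE 0.53, edgeR adjusted p = 0.0664). At 22 °C against 30 °C it was 0.73 (edgeR adjusted p = 0.271).

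The highest Adcy5 value belonged to the deeply sequenced 22 °C mouse 3. Without that mouse the change at 6 °C against 22 °C was -1.29 and still called, that at 22 °C against 30 °C was 0.06, and that at 6 °C against 30 °C was called (-1.23, edgeR adjusted p = 0.0185). The comparison of 6 °C with 30 °C was also called without 22 °C mouse 1 (edgeR adjusted p = 0.0491) or mouse 2 (0.0405). The same call appeared with DESeq2 (adjusted p = 0.0463) and with the 8 libraries compared alone (edgeR adjusted p = 0.00532). Total counts only (edgeR adjusted p = 0.0245) and the fit without the robust option (0.0398) gave it too. The difference of the steps, -2.71 (SE 0.85, edgeR adjusted p = 0.0369), was called in 9 of 23 alternatives and was -1.35 without 22 °C mouse 3. It was not called on leaving out 22 °C mouse 4, 30 °C mouse 2, A or B, or any 6 °C mouse, with adjusted p-values up to 0.0828. The change at 6 °C against 22 °C was not called with limma voom (-1.75, adjusted p = 0.0503) or the block of mouse number (-1.61, edgeR adjusted p = 0.0994). Nor was it called with skeletal muscle markers as a covariate, an alternative added after seeing the data (-1.82, edgeR adjusted p = 0.0545).

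Adcy9, the isoform that responds poorly to forskolin, was highest at 22 °C. It lies on the minus strand at chr16:4287529-4420498. Its level was 32.2, 27.7, 21.6 and 26.7 CPM at 30 °C, 24.8, 41.1, 39.2 and 41.8 CPM at 22 °C, and 20.9, 23.9, 22.2 and 17.9 CPM at 6 °C. Mice 2, 3 and 4 of 22 °C stood above all others, mouse 1 lay within the range of 30 °C, and the 6 °C mice were below all 22 °C mice. The log2 fold change was -0.79 at 6 °C against 22 °C (SE 0.16, edgeR adjusted p = 0.00321) and 0.44 at 22 °C against 30 °C (SE 0.16, edgeR adjusted p = 0.0414). The change at 6 °C against 30 °C was -0.35 (edgeR adjusted p = 0.0873), and the 2 steps differed by -1.23 (SE 0.28, edgeR adjusted p = 0.00596).

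The change of Adcy9 at 6 °C against 22 °C was called in all 24 alternatives (-0.94 to -0.72). That at 22 °C against 30 °C was called in 10 of 24 and was lost on leaving out any of 22 °C mice 2, 3 and 4, 30 °C mice 2, A and B, or 6 °C mice 1 and 3 (0.35 to 0.46). At 6 °C against 30 °C the gene was called without 22 °C mouse 1 (-0.34, edgeR adjusted p = 0.025) or 30 °C mouse A (-0.44, edgeR adjusted p = 0.0397).

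Adcy2, a beta-gamma-stimulated isoform best known from the brain, was the scarcest cyclase of the 8 at 22 and 6 °C. It lies on the minus strand at chr13:68620043-68999541. It held 2.30, 0.643, 0.360 and 0.914 CPM at 30 °C, 0.594, 0.596, 1.27 and 1.41 CPM at 22 °C, and 0.853, 0.267, 0.177 and 0.839 CPM at 6 °C. The groups overlapped throughout, and no comparison passed (log2 fold change -1.03 at 6 °C against 30 °C, 95% interval -2.39 to 0.32, edgeR adjusted p = 0.175). The highest and lowest mice in Adcy2, 30 °C mouse 1 and 6 °C mouse 3, were also the highest and lowest in skeletal muscle markers, at 4522 and 99.2 CPM. A fit with the mean log2 CPM of the 14 muscle markers as a covariate was added after seeing the data. In it the log2 fold change of Adcy2 was -0.08 at 6 °C against 30 °C and 0.31 at 22 °C against 30 °C (SE 0.35). Neither was called, and neither was called without the covariate. The part of muscle tissue in the level of Adcy2 was not tested.

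Set side by side, the isoforms called at the 2 steps were not all the same. At 22 °C against 30 °C, 5 of the 8 genes were called, Adcy3, Adcy9 and Adcy10 higher and Adcy4 and Adcy7 lower, where 44.6% of all genes were called, 21.8% higher and 22.8% lower. At 6 °C against 22 °C, 4 were called, Adcy3 and Adcy10 higher and Adcy5 and Adcy9 lower, where 34.2% of all genes were called, 16.9% higher and 17.4% lower. The 22 °C libraries enter both comparisons, on opposite sides. For the difference of the steps, 5 genes were called, where 29.3% of all genes were, 14.3% higher and 15.0% lower. The step to 6 °C lay above the step to 22 °C for Adcy3, Adcy4 and Adcy7, and below it for Adcy5 and Adcy9. Over any temperature 6 were called, all but Adcy2 and Adcy6, where 65.7% of all genes were.

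At 6 °C against 30 °C the ranges of the groups did not overlap for 4 of the 8 genes, 2 higher and 2 lower (51.5% of all genes in either direction). The same held for 3 at 22 °C against 30 °C, 2 higher and 1 lower (38.9% of all genes in either direction). It held for 5 at 6 °C against 22 °C, 3 higher and 2 lower (34.9% of all genes in either direction). By median, the 8 genes had a log2 fold change of 0.19 at 22 °C against 30 °C, where all genes had -0.02, and of 0.18 at 6 °C against 22 °C, where all genes had -0.03.

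The genes most like each cyclase were sought among 9911 genes of at least 5 CPM on average, by the root mean square distance of centred log2 CPM over the 12 libraries. Near to Adcy3 were St3gal5 (distance 0.29) and Pfkp (0.30), where Adcy3 itself varied by 1.22 around its mean. St3gal5 makes the ganglioside GM3 and Pfkp is a phosphofructokinase of glycolysis. Nearest to Adcy10, which varied by 2.70, the most of the 8 genes, were Ttc25 (0.68), Marc1 (0.72) and Hephl1 (0.81). In log2 units these lay further away than the nearest genes of the other cyclases, with no allowance for the wider spread of Adcy10. Adcy7, which varied by 1.02, had close matches in Epsti1 and Pik3cd (0.15 each) and in Pld4 (0.16), an endolysosomal exonuclease of immune cells.

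Near to Adcy5 (0.94) were Slc43a1 and Cyp2e1 (0.39 each). For Adcy2 (0.89) the nearest were Smyd1 (0.29), Myom1 and Tmem38a (0.38 each), genes of striated muscle. Adcy4, Adcy6 and Adcy9 varied little, by 0.34, 0.13 and 0.39. Their nearest genes were Nop58 and Rhoc (0.11 each) for Adcy4, the endothelial receptor gene Flt1 (0.08) for Adcy6 and Tet2 (0.15) for Adcy9. These distances describe 12 libraries that share their temperature groups.

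The rest of the cAMP pathway was read from lists of 128 genes, of which 112 were tested. At 6 °C against 30 °C, 33 were higher (29.5%) and 35 lower (31.2%), near the background of 25.3% and 31.5%, with a median log2 fold change of -0.13. The counts of the single lists below stand beside the same background. None of the changes named below was as large as that of Adcy10.

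**Figure D5:**
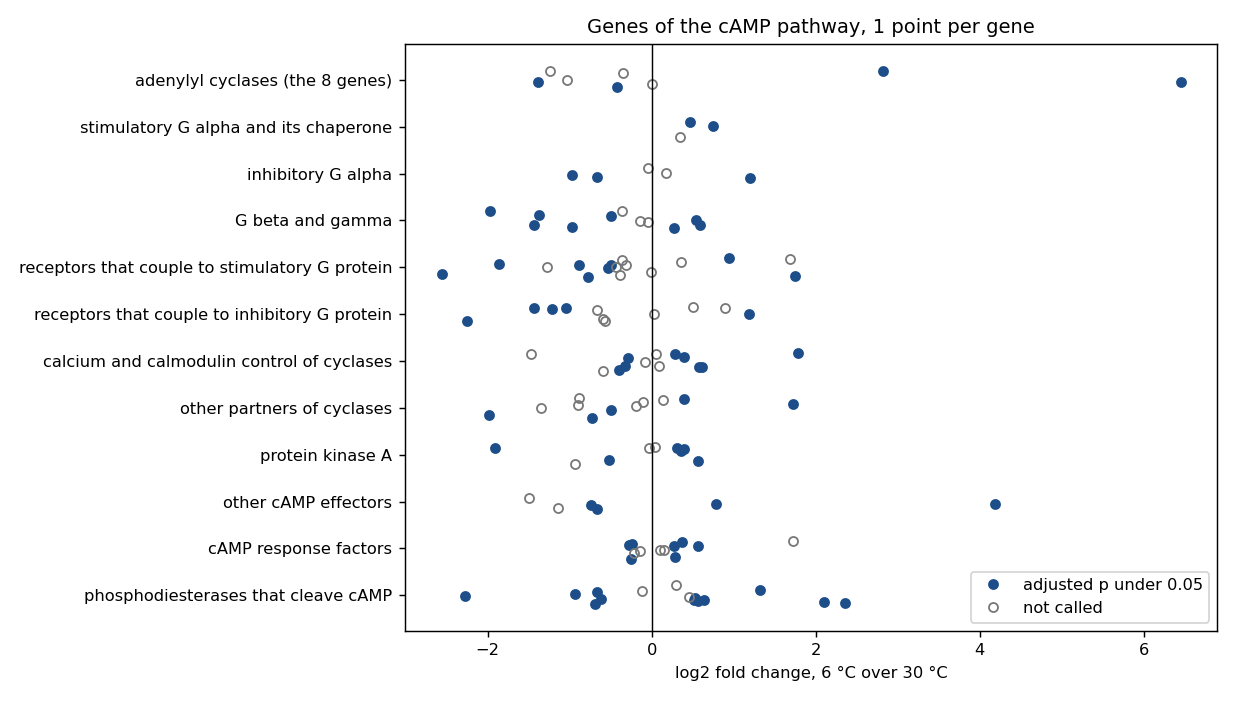
Log2 fold change at 6 °C over 30 °C of the 8 cyclase genes and of the listed genes of the cAMP pathway, 1 row per list and 1 point per gene, filled where the adjusted p was under 0.05. Adcy10 (6.45) and Hcn2 (4.19) lie furthest to the right, and called genes lie on both sides of 0 in every list but the stimulatory G alpha subunits.

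Upstream of the cyclases, 2 of the 3 genes for stimulatory G alpha subunits and their chaperone rose at 6 °C against 30 °C. Gnas, the stimulatory alpha subunit itself, had a log2 fold change of 0.75 (SE 0.28, edgeR adjusted p = 0.0394) and its chaperone Ric8b of 0.47 (SE 0.12, edgeR adjusted p = 0.00482). Of 16 tested receptors that couple to this protein, 2 rose and 6 fell. Adrb3, the beta3-adrenergic receptor of adipocytes, rose by 0.94 (SE 0.26), with 438 ± 73.7 CPM at 6 °C against 228 ± 67.3 CPM at 30 °C, and the parathyroid hormone receptor Pth1r by 1.75 (SE 0.22). The secretin receptor Sctr fell by 1.86 (SE 0.15) and Calcrl, the receptor of adrenomedullin and related peptides, by 0.89 (SE 0.09).

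Among inhibitory inputs, 1 of 5 alpha subunits rose and 2 fell. Gnao1 rose by 1.20 (SE 0.13), Gnai2 fell by 0.67 (SE 0.11) and Gnaz fell by 0.97 (SE 0.29). Of 11 tested receptors that couple to inhibitory proteins, 1 rose and 4 fell. The prostaglandin E2 receptor Ptger3 rose by 1.19 (SE 0.26), the lactate receptor Hcar1 fell by 2.25 (SE 0.41) and the neuropeptide Y receptor Npy1r by 1.22 (SE 0.25).

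Of 11 tested beta and gamma subunits, which stimulate the Adcy2, Adcy4 and Adcy7 products, 3 rose and 5 fell at 6 °C against 30 °C. Gng12 rose by 0.54 (SE 0.07) and Gnb5 by 0.59 (SE 0.10), while Gng7 fell by 1.97 (SE 0.16) and Gnb4 by 0.97 (SE 0.08). Of 13 genes for calcium and calmodulin control, 5 rose and 3 fell. Camk2b, a subunit of a kinase known to inhibit ADCY3, rose by 1.79 (SE 0.26), while the calmodulin gene Calm2 fell by 0.40 (SE 0.09) and the calcineurin subunit Ppp3ca by 0.29 (SE 0.07). Among 11 tested partners of cyclases 2 rose and 3 fell. The kinase Prkce rose by 1.73 (SE 0.20), and the anchoring proteins Akap5 and Akap12 fell by 1.98 (SE 0.32) and 0.50 (SE 0.16).

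Downstream of cAMP, 4 of 9 genes of protein kinase A rose and 2 fell. The regulatory subunits Prkar1a and Prkar2b rose by 0.36 (SE 0.07) and 0.56 (SE 0.12), Prkar1b fell by 0.52 (SE 0.16), and the inhibitor Pkia by 1.91 (SE 0.61). Of 6 tested genes for other cAMP-binding proteins 2 rose and 2 fell. Hcn2, a channel gated by voltage and cAMP, rose by 4.19 (SE 0.23, edgeR adjusted p = 7.3e-08), with 41.1 ± 4.84 CPM at 6 °C against 2.25 ± 0.405 CPM at 30 °C. At 22 °C it held 2.88 ± 1.07 CPM. Rapgef4, an exchange factor activated by cAMP, rose by 0.79 (SE 0.17), while its relative Rapgef3 fell by 0.66 (SE 0.11) and Popdc2, a membrane protein that binds cAMP, by 0.74 (SE 0.11).

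Among 12 transcription factors, coactivators and kinases of the cAMP response, 4 rose and 3 fell, with log2 fold changes between -0.27 and 0.56 for those called. Sik2 and Sik3, salt-inducible kinases that protein kinase A inhibits, rose by 0.56 (SE 0.12) and 0.37 (SE 0.12), while the coactivator Crtc3 fell by 0.27 (SE 0.08) and Creb1 by 0.25 (SE 0.08). Of 15 tested phosphodiesterases, which break cAMP down, 7 rose and 5 fell. Pde4d rose by 1.32 (SE 0.13, 162 ± 29.2 CPM at 6 °C against 64.8 ± 10.7 CPM at 30 °C) and Pde7b by 2.36 (SE 0.22), while Pde11a fell by 2.28 (SE 0.37) and Pde10a by 0.67 (SE 0.13). Like Adcy3, Pde4d and Pde7b were called higher at both steps, by 0.66 (SE 0.13) and 0.60 (SE 0.21) at 22 °C against 30 °C and by 0.66 (SE 0.13) and 1.75 (SE 0.21) at 6 °C against 22 °C.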

How the data were processed

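RNA of 12 brown fat samples, 4 per temperature, was sequenced. The authors deposited raw read counts per Ensembl gene, with no normalisation, per the file headers. The submitters' processing notes list FastQC 0.10.1, STAR 2.4.2a and edgeR 3.14.0 with the builds mm10 and GRCm38, but not what each was used for. Counter, annotation and strandedness: not given in the sources used here. Gene positions and exon lengths came from GENCODE for GRCm38, which matched 96.6% of identifiers.

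Each column was matched to a labelled mouse by its name for 10 libraries, and by its letter to 30 °C for 2 (mice A and B). Different mice are labelled as different samples, and pairs of libraries of a group differed by more than counting noise.

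Counts were fitted with edgeR 4.0.16 (R 4.3.3): filterByExpr, TMM factors, robust glmQLFit with 1 factor of 3 temperatures over all 12 libraries, and two-sided glmQLFTest. A standard error is the absolute log2 fold change over the root of F. CPM are TMM-normalised. The fit was tested on simulated data with known fold changes. Alternatives used other scalings and filters, DESeq2 1.42.0, limma voom 3.58.1, glmQLFit without the robust option, a block of mouse number, fewer libraries and a muscle covariate.

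The cyclase genes, lists and markers were chosen with earlier results of these data known. Pathway genes were named by a rule: the 2 called genes with the smallest p in each direction per list at 6 °C against 30 °C. Some genes that this rule or the likeness measure named are not reported here. Precision is set by depth, as given with the counts behind 1 CPM, and by 4 mice a group.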

Additional observations from a re-analysis of the deposited data

Results flagged for a closer look

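Of 24 groups of 4 mice checked for a value far from the others (8 genes at 3 temperatures), 1 was marked. Adcy9 at 22 °C was lowest in mouse 1, at 24.8 CPM, while mice 2, 3 and 4 held 41.1, 39.2 and 41.8 CPM. The gap to the next mouse was 0.848 of the range of the group, past the limit of Dixon's test for 4 values. Chance marks about 1 group in 20. Without this mouse the log2 fold change of Adcy9 was 0.59 at 22 °C against 30 °C and -0.94 at 6 °C against 22 °C.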

How the results depend on the processing

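Results were recomputed under 24 other settings. Of the single-gene results, 847 kept direction and side of the threshold, 62 lost a call, 21 gained a call and 14 changed sign. Of these 14, 13 were called in neither setting. Adcy6 at 6 °C against 30 °C (0.00) was -0.01 with a filter of 1 CPM, -0.06 with upper-quartile factors, -0.02 without mice A and B, -0.05 with the block of mouse number and -0.04 to 0.06 on leaving out 1 library. Adcy2 at 22 °C against 30 °C (-0.07) was 0.28 with limma voom, 0.31 with the muscle covariate and -0.37 to 0.66 on leaving out 1 library. Adcy5 at 22 °C against 30 °C (0.73) was -0.00 with the block. The 1 called was Adcy6 at 6 °C against 30 °C, -0.31 with total counts only. Total counts moved the median of all genes by -0.32, put 19.7% of the calls on the higher side (44.6% with TMM) and called 5 cyclase genes lower at 6 °C against 30 °C. Adcy3 and Adcy10 were called under all settings at 6 °C against 30 °C and against 22 °C. The cause of the other changes was not tested.

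The number of cyclase genes called lower was 2 in each comparison. At 6 °C against 30 °C it was 1 with RLE factors and 0 without mice A and B. Adcy7 then had -0.59 (edgeR adjusted p = 0.0862) and Adcy4 -0.23 (edgeR adjusted p = 0.309). The count at 22 °C against 30 °C was 1 when these mice were left out. At 6 °C against 22 °C it was 1 with limma voom and with the muscle covariate. For the difference of the steps it was 1 with limma voom, without a filter, with the muscle covariate and without mice A and B. Leaving out 1 library gave 1 to 4 genes called lower at 6 °C against 30 °C and 1 to 2 for the difference of the steps.

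Same-numbered mice of different temperatures had correlated deviations of -0.04 to 0.35, over 0.1 in 4 of 8 pairs. Differently numbered mice were not set beside them, so these values do not decide whether the numbers pair animals. The numbers were not taken as pairs because the labels do not say that they pair animals. With the mouse number as a block over 10 libraries, 3245 genes were called at 22 °C against 30 °C (6634 without the block) and 2468 for the difference of the steps (4353 without). Cyclase genes called were then 1 higher and 1 lower at 22 °C against 30 °C, 0 lower at 6 °C against 30 °C, 1 lower at 6 °C against 22 °C and 0 lower for the difference of the steps. Adcy3 at 22 °C against 30 °C was 0.63 with the block (adjusted p = 0.0618). The block gave -0.47 for Adcy7 (edgeR adjusted p = 0.212) and -0.18 for Adcy4 (edgeR adjusted p = 0.472) at 6 °C against 30 °C. That fit also lacks mice A and B.

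Per kilobase of exon, shares of Adcy3 and Adcy6 moved by less than the spread between mice, while those of Adcy10 at 6 °C (3.93%), Adcy2 at 22 °C (0.321%), Adcy4 (10.8% at 30 °C, 7.10% at 22 °C, 4.98% at 6 °C) and Adcy9 (7.26% at 30 °C, 10.0% at 22 °C, 3.49% at 6 °C) moved by more. Depth limits Adcy2 and, at 30 °C, Adcy10, whose counts there were 6 to 27 reads a library.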

Other observations

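Some neighbours of other cyclase genes within 10000 bases, chosen after their values were seen, also differed between temperatures. Among all tested genes, 65.7% were called over any temperature. Ripk3, a kinase of necroptosis whose gene ends 900 bases upstream of Adcy4 on the same strand, fell by 1.41 on the log2 scale at 22 °C against 30 °C (SE 0.22, edgeR adjusted p = 2.8e-04), or 2.66-fold. It rose by 0.98 at 6 °C against 22 °C (SE 0.22, edgeR adjusted p = 0.00474). The gene 4930415O20Rik, 393 bases from Adcy6 on the opposite strand, held 4.04 ± 0.752 CPM at 6 °C against 0.455 ± 0.187 CPM at 30 °C (SD, n = 4 each; log2 fold change 3.13, SE 0.30, edgeR adjusted p = 2.6e-06), beside the even level of Adcy6. Brd7, 1077 bases from Adcy7, fell by 0.19 at 6 °C against 22 °C (SE 0.06, edgeR adjusted p = 0.0383). Sec22a, 5393 bases from Adcy5, was not called in any comparison, with -0.14 at 6 °C against 30 °C (edgeR adjusted p = 0.207). Nor were Ltb4r1, 563 bases from Adcy4 (edgeR adjusted p = 0.0905 over any temperature), or Cenpo, given above with Adcy3.

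Ptger3 and Adora1, receptors of the pathway lists, had their highest level at 22 °C, again chosen after their values were seen. They were not alone in this. Hcar2 and Vipr2 were also called higher at 22 °C against 30 °C and lower at 6 °C against 22 °C. Ptger3 held 17.4 ± 3.60 CPM at 30 °C, 77.1 ± 30.0 CPM at 22 °C and 39.5 ± 6.44 CPM at 6 °C. It rose by 2.15 at 22 °C against 30 °C (SE 0.27, edgeR adjusted p = 1.3e-04) and fell by 0.96 at 6 °C against 22 °C (SE 0.26, edgeR adjusted p = 0.0149). Adora1, the adenosine A1 receptor, held 102 ± 13.3 CPM at 30 °C, 144 ± 12.1 CPM at 22 °C and 105 ± 11.5 CPM at 6 °C, and was called at both steps (0.49 and -0.46).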
